A study of Mus musculus with 40 samples.

Results

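Afp, H19, Igf2, Gpc3, Dlk1 and Igf2bp3 are genes that the fetal mouse liver transcribes strongly and the adult liver largely silences. These 6 of the 55487 genes counted were selected on measured values of these same livers, after H19 had been seen to be high in some livers of mice lacking Nampt in hepatocytes (HNKO), so the differences between HNKO and WT given for them describe the livers and are not tests. Of the 6 genes, 4 (Afp, H19, Gpc3 and Igf2bp3) passed the filter on low counts that left 20297 genes for testing, whereas Igf2 and Dlk1 did not. The members were followed in 38 whole-liver libraries, each from 1 mouse, by their raw counts and by log2 CPM, the log2 of depth-scaled counts, which were brought to 1 scale between libraries.

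Liver RNA was sequenced from female mice of the strain background C57BL/6JBomTac that were switched at 9 weeks of age to a purified diet (PD). Livers were taken on day 3, 6, 12 or 21 of the diet. In the labels these numbers stand as the age of the mice, and the days of feeding stated in the study's methods are used here. HNKO mice were Nampt fl/fl with Alb-Cre+/-, and WT mice were their floxed littermates, so both genotypes carried floxed Nampt. Cre driven by the albumin promoter deletes Nampt in hepatocytes, and other liver cells can still supply Nampt RNA to HNKO livers. The source of the Nampt RNA that remained there was not tested. The groups held 5 HNKO and 5 WT libraries at day 3, 5 and 4 at day 6, 6 and 5 at day 12, and 3 and 5 at day 21, where HNKO libraries 17 and 18 were left out because their labels mark failed quality control. Total counts ranged from 16151037 to 64181492 per library (median 26466478.5). Nampt was lower in HNKO than in WT at days 3, 6 and 12, at log2 differences of -0.93, -0.90 and -0.82 (adjusted p = 0.0193, 0.0128 and 0.0208 by edgeR's quasi-likelihood test), and the value at day 21 was -0.69 (adjusted p = 0.161). The groups did not overlap except at day 6, where HNKO library 7 (6.36 log2 CPM) lay within the WT range. The summed level of 7 hepatocyte markers was 15.81 to 16.88 log2 CPM in HNKO (median 16.46) and 16.46 to 17.20 in WT (median 16.91). At day 6 the 5 HNKO libraries (15.81 to 16.66) lay below the 4 WT libraries (16.84 to 17.04), and 2 of the 7 markers, Alb and Ttr, were called lower. The part of this shift in the values of day 6 was not tested. In bulk RNA of whole liver, fewer cells of a type and less RNA per cell cannot be told apart.

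Alpha-fetoprotein, encoded by Afp, is the main serum protein of the fetal liver and is largely replaced by its relative albumin after birth. H19 is a maternally expressed imprinted RNA that lies beside the paternally expressed growth factor gene Igf2, and a shared imprinting control region and shared enhancers set which parental copy of each is expressed. Both are switched down in the liver after birth, while H19 remains transcribed in adult skeletal muscle. Gpc3 encodes a cell surface proteoglycan that restrains growth, Dlk1 a Notch-like membrane protein of hepatoblasts that is itself imprinted, and Igf2bp3 an RNA-binding protein named for binding Igf2 mRNA. Return of such genes in adult liver is known from regeneration, progenitor cells and liver tumors.

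H19 is the precursor of a microRNA, miR-675. The hairpin is shown because H19 reached the highest level of any member in a single liver, although its median was below that of Afp. The sequences come from RefSeq on GRCm38.p6. The hairpin spans 84 bases on the minus strand of chromosome 7, and capitals mark its 2 mature arms.

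Mir675 hairpin (chr7:142577064-142577147): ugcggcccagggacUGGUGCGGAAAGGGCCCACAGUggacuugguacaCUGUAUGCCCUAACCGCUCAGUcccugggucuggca

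In the mature arms, capitals mark the seed, which are the bases that pair with target transcripts.

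mmu-miR-675-5p (chr7:142577112-142577133): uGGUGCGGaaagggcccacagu
mmu-miR-675-3p (chr7:142577078-142577099): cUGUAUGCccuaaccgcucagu

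The 2 arms have different seeds, and 0 of the other mature mouse microRNAs in a table of 1738 share either seed. The whole hairpin is contained in 3 of the 7 annotated H19 transcripts, so a count on H19 does not say how much of the RNA could give miR-675. The Mir675 entry itself had 0 counts over the 38 libraries. All of its 84 bases lie in exons of H19 on the same strand, so this 0 does not measure the microRNA. H19 itself occupies chr7:142575529-142578143 on the minus strand, as a lincRNA with 2460 bases of exon, and the Igf2 annotation starts 72623 bases beyond the end of H19.

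The level of H19 was low in most livers and very high in a few HNKO livers. Over the 19 WT libraries, H19 had between 5 and 382 counts, with a median of 16. In HNKO, 15 of 19 libraries had between 5 and 80 counts, and the other 4 had 2229 (library 7, day 6), 1237 (library 11, day 12), 551 (library 37, day 21) and 273 (library 13, day 12). In CPM, these 4 libraries stood 119, 58.8, 28.2 and 13.5 times above the WT median. The highest WT library was library 21 at day 21, at 9.07 times that median.

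At day 3, H19 had 33, 44, 8, 5 and 80 counts in HNKO libraries 2, 3, 4, 22 and 23, and 18, 6, 53, 46 and 16 counts in WT libraries 1, 5, 24, 25 and 26. The groups overlapped, and the fitted log2 difference was 0.20 (SE 1.32), which became -0.45 without HNKO library 23 and 0.79 without WT library 24. At day 6, HNKO libraries 6, 7, 29, 30 and 31 had 20, 2229, 46, 11 and 20 counts, against 16, 12, 18 and 5 in WT libraries 8, 10, 27 and 28. Scaled for depth, 3 of the 5 HNKO libraries lay above all 4 WT libraries, but 2 of these 3 by little, at -0.03 and 0.19 log2 CPM beside a highest WT value of -0.08. The fitted log2 difference was 4.73 (SE 1.54), which is 26.6-fold, and 0.43 without library 7.

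At day 12, HNKO libraries 11, 12, 13, 32, 35 and 36 had 1237, 22, 273, 60, 24 and 8 counts, against 16, 11, 51, 7 and 11 in WT libraries 14, 15, 16, 33 and 34. Libraries 11 and 13 were above all WT libraries and the other 4 lay among them. The fitted log2 difference was 3.51 (SE 1.29), and 1.80 without library 11. At day 21, HNKO libraries 37, 38 and 40 had 551, 16 and 63 counts, and WT libraries 19, 20, 21, 39 and 41 had 59, 25, 382, 12 and 20. Only library 37 exceeded the WT range, and the log2 difference changed from 1.65 (SE 1.28) to -0.68 without it.

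**Figure D1:**
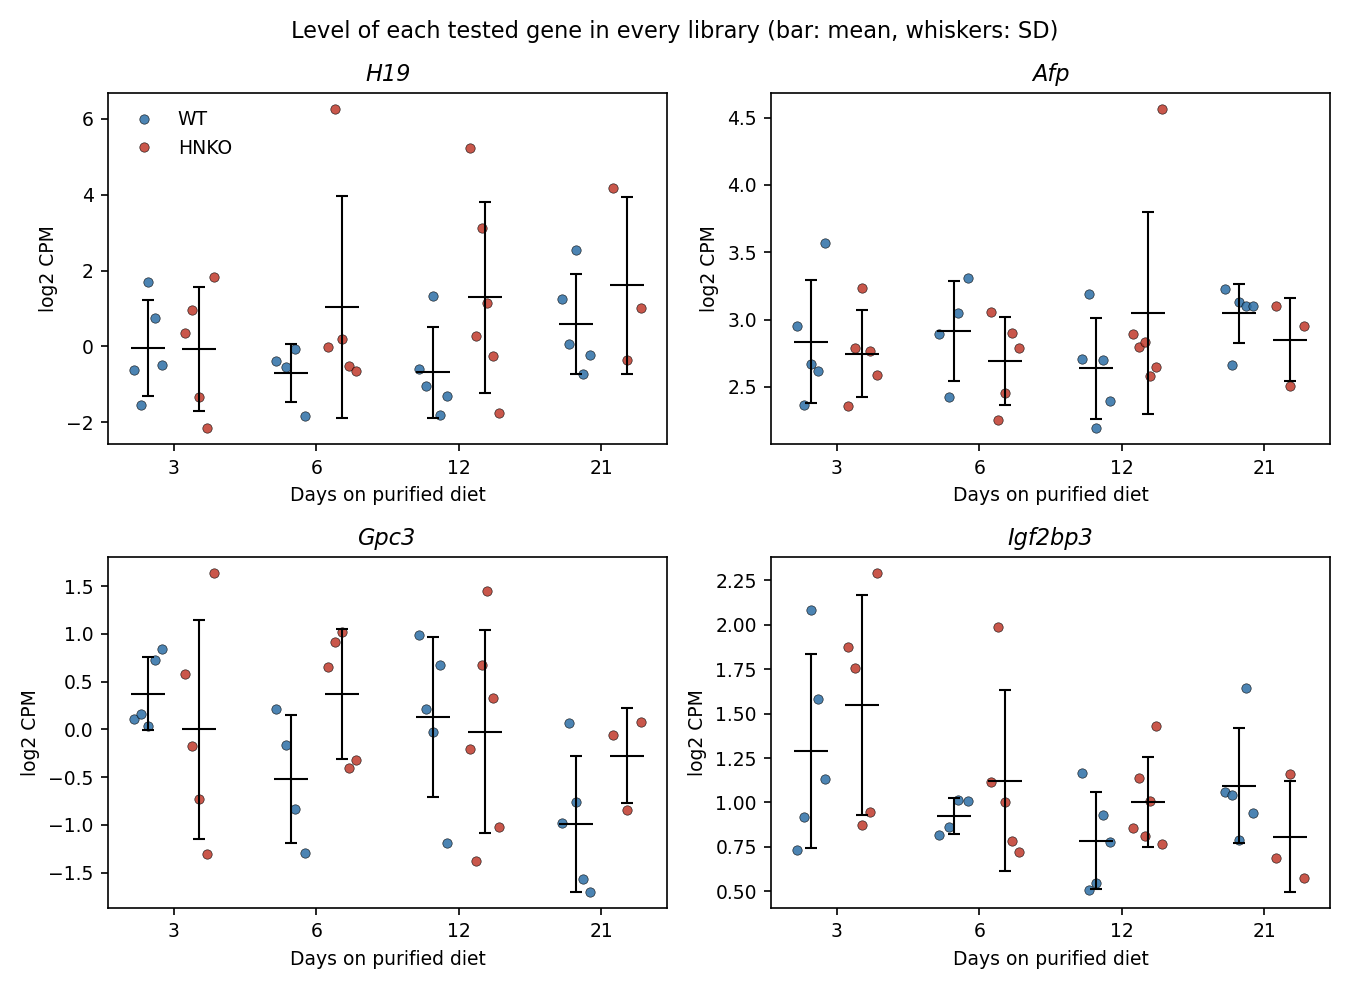
Each point is 1 library, with log2 CPM on the vertical axis (a different scale in each panel), days on purified diet on the horizontal axis, blue for WT and red for HNKO, and black bars with whiskers for the mean and SD. In H19, single HNKO libraries at 6.25, 5.24 and 4.18 log2 CPM stand far above the rest of their groups, whereas in Afp the HNKO library at 4.56 is alone and in Gpc3 and Igf2bp3 the groups overlap at each day.

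The size of the H19 signal went with skeletal muscle transcripts in all of the high libraries but library 7. The 6 markers used (Acta1, Ckm, Myh4, Mylpf, Tnnt3 and Actn3) encode the contractile apparatus and creatine kinase of muscle fibers. Their summed level had a median of -0.05 log2 CPM over HNKO and -0.07 over WT libraries, with ranges of -1.19 to 8.61 and -0.63 to 6.09. It was 8.61 in library 11, 8.19 in library 37, 6.41 in library 13 and 6.09 in WT library 21, which are the 4 libraries ranking after library 7 for H19. For every 100 muscle marker counts, these 4 had 9.62, 6.2, 10.2 and 8.54 H19 counts. Libraries with lower but raised muscle sums varied more in this ratio. It was 9.23 in WT library 19 (muscle sum 4.66 log2 CPM), 21.3 in HNKO library 23 (4.03) and 35.1 in HNKO library 32 (2.63).

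In library 7 the same 6 markers summed to 34 counts (0.30 log2 CPM), with 0 for Acta1, 1 for Ckm and 0 for Myh4, against 2229 counts for H19. The muscle markers were thus at the level of the other livers where H19 was highest. Of the 6 muscle markers, 6 were called higher in HNKO at day 12 and 1 at day 21, and 0 were called at days 3 and 6 by edgeR's quasi-likelihood test. The count of day 12 was 0 without HNKO library 11 and 3 without any 1 of HNKO library 13 and WT libraries 14, 15, 33 and 34. The 1 call of day 21 was lost without HNKO library 37, and also without any 1 of WT libraries 19, 20, 21, 39, 41, 8, 27 and 28 or HNKO libraries 6 and 30. When the 6 libraries with a muscle sum over 3 log2 CPM (HNKO 11, 13, 23 and 37, WT 19 and 21) were left out, the log2 difference of H19 was 4.73 at day 6, 0.49 at day 12 and 0.82 at day 21, and 0 of the 6 markers were called at day 12. The part of muscle RNA in the H19 values of days 12 and 21 was not tested.

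**Figure D2:**
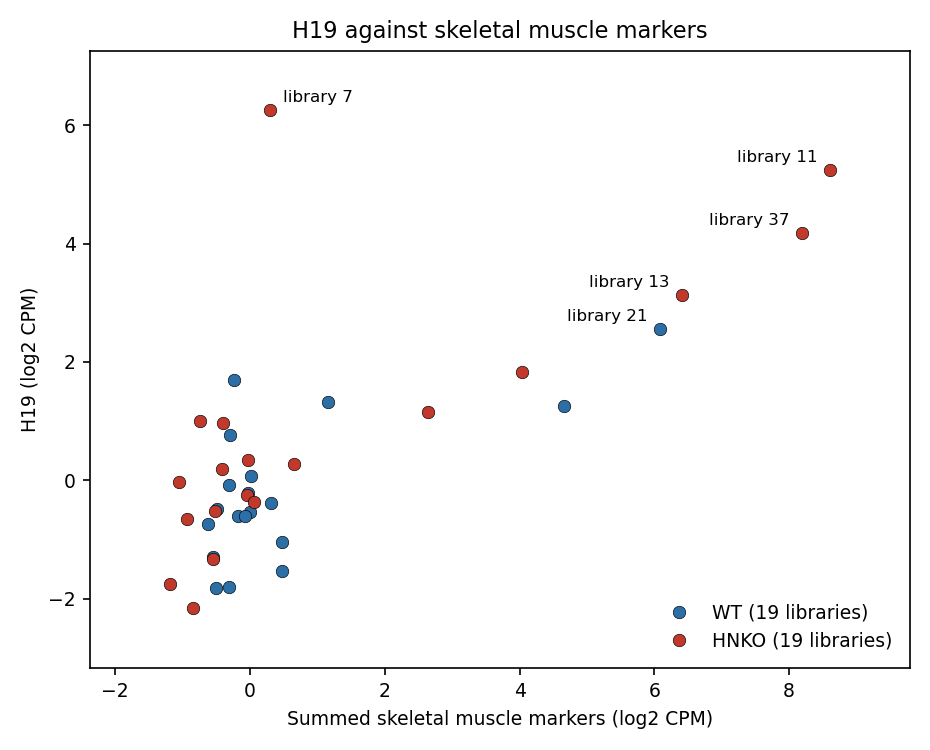
H19 (vertical, log2 CPM) is plotted against the summed level of 6 skeletal muscle markers (horizontal, log2 CPM), 1 point per library, blue for WT and red for HNKO. Libraries 11, 37, 13 and 21 lie on a rising line, and library 7 has the highest H19 at a muscle level of 0.30.

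Some neighbors of H19 on chromosome 7, those known from muscle among them, differed between the same libraries. Tnnt3 is itself a marker in the muscle sum, so its counts restate that sum in part. Tnnt3 and Tnni2, fast skeletal muscle troponin genes that lie within 200000 bases of H19, had 3621 and 1487 counts in library 11, 544 and 226 in library 13, 1717 and 842 in library 37, and 1097 and 464 in WT library 21, but 3 and 7 in library 7. Nctc1, a noncoding gene between Tnnt3 and H19, had 33, 8, 36 and 21 counts in libraries 11, 13, 37 and 21 and 0 in library 7. Igf2 had 0 counts in all 5 of these libraries. Mrpl23, a ribosomal protein gene in the same interval that is expressed in most cells, ranged only from 62 to 320 counts over the 38 libraries. Lsp1, between Tnni2 and Tnnt3, was highest of these libraries in library 7, at 534 counts. It had 276, 298, 263 and 284 counts in libraries 11, 13, 37 and 21, and a median of 161.5 over all libraries. Ctsd had 7284 counts in library 7, and 7152, 7212, 5918 and 10133 in libraries 11, 13, 37 and 21.

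Every gene is highest in some library. Of the 20297 tested genes, 677 had their highest level of all 38 libraries in library 7, against 408 in HNKO library 36. The count is given for no other library, so it cannot say whether library 7 stands apart. H19 ranked 17th of the 677 by its distance to the next library (1.01 on the log2 scale). The genes with the largest distances, named after their values were seen, were Gucy2c (a guanylate cyclase receptor, 2.09 above the next library), Ccl21a (a chemokine, 2.01), Mmrn1 (multimerin of platelets and endothelium, 1.80), Sema3g (a semaphorin, 1.70) and Sfrp1 (a secreted Wnt inhibitor, 1.67). These values describe 1 mouse, for which no second library was sequenced.

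Over all 38 libraries, the genes whose levels ranked most like H19 were Cox6a2 (Spearman's rho 0.74), Fndc5 (0.72), Rps6ka2 (0.70), Olfm2 (0.70) and Rad51b (0.69), from 20296 genes ranked. Cox6a2 is the muscle isoform of a cytochrome oxidase subunit, and Fndc5 is also known from muscle. These likenesses share their libraries and include the 6 libraries with high muscle markers.

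Within groups, H19 was followed in the 15 HNKO libraries that had at most 3 log2 CPM, because the 4 high libraries stood apart and allow no pooled correlation. Values were taken as deviations from the mean of each genotype and day, p-values came from 100000 permutations within groups, and they were adjusted over the 50 relations computed per genotype, 6 between members and 44 with marker lists. H19 and Gpc3 had r = 0.78 and rho = 0.76 (permutation p = 0.00636 and 0.00901, adjusted 0.0602 and 0.0751), and r = 0.65 without libraries 22 and 23. H19 and the muscle sum had r = 0.73 and rho = 0.56 (permutation p = 0.0172 and 0.0551, adjusted 0.108 and 0.226), and r = 0.64 without the same 2 libraries. Other marker lists were as close to H19 in these 15 libraries. Stellate cell and myofibroblast markers had r = 0.75 and rho = 0.76 (permutation p = 0.00535 and 0.00532, adjusted 0.0602 and 0.0665), and r = 0.54 without libraries 22 and 23. Mesothelial markers had r = 0.74 and rho = 0.74 (permutation p = 0.0124 and 0.00836, adjusted 0.0886 and 0.0751), and r = 0.71 without libraries 22 and 23. Over the 19 WT libraries H19 and the muscle sum had r = 0.62 and rho = 0.61 (permutation p = 0.00662 and 0.0152, adjusted 0.166 and 0.253), and r = 0.52 without libraries 21 and 24. None of these 5 relations passed the adjusted threshold of 0.05. With deviations taken within group and label series (library numbers 1 to 21 and 22 to 41), r was 0.93 for H19 and Gpc3, 0.84 for H19 and muscle in HNKO and 0.59 for H19 and muscle in WT (adjusted permutation p = 0.077, 0.221 and 0.693).

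Igf2, the partner of H19 in the imprinted domain, was not detected in HNKO livers. It had 0 counts in each of the 19 HNKO libraries, which allows up to 0.0456 to 0.178 CPM per library (3 counts, depending on depth, for counting error only). In WT, 14 of 19 libraries had 0 and the others 1 count, 5 counts in all. Igf2 lies at chr7:142650766-142666816 on the minus strand and shares 3596 exonic bases with the gene model Gm49394, on the same strand, which had 0 counts as well. How reads over 2 genes were assigned is not given in the sources used here, and if such reads were dropped, the limit holds only for the bases of Igf2 that are not shared. The libraries with 1237 to 2229 counts of H19 were thus among those in which Igf2 was at 0.

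Dlk1, at chr12:109452823-109463336 on the plus strand, was likewise near 0. It had 6 counts over the 19 HNKO libraries and 7 over the 19 WT libraries, with at most 2 in any library. No level of HNKO and WT can be told apart at these counts, which are at or under the floor of 3 counts.

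Per length of exon, Afp was the most abundant member in WT livers, with a median of 2.19 CPM per kilobase (range 1.34 to 3.5). Gpc3 (0.354, range 0.0875 to 0.711), H19 (0.260, range 0.0856 to 2.36) and Igf2bp3 (0.226, range 0.166 to 0.510) followed in that order of medians, with ranges that overlap one another. Dlk1 and Igf2 had medians of 0. In HNKO the medians were 2.03 for Afp, 0.465 for H19, 0.329 for Gpc3 and 0.237 for Igf2bp3, and library 7 reached 30.9 CPM per kilobase for H19.

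Afp, at chr5:90490737-90508907 on the plus strand, stayed at a low level in both genotypes apart from 1 liver. HNKO libraries had between 127 and 836 counts (median 193) and WT libraries between 94 and 572 (median 176). At day 12, HNKO library 36 had 836 counts (4.56 log2 CPM), while the other 5 HNKO libraries of that day were between 2.58 and 2.89 log2 CPM and the 5 WT libraries between 2.19 and 3.19. The fitted log2 differences were -0.13 (SE 0.29), -0.24 (SE 0.31), 0.59 (SE 0.28) and -0.19 (SE 0.33) at days 3, 6, 12 and 21. Without library 36 the value of day 12 was 0.07.

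In library 36, Afp was the gene that exceeded its next highest library by the most of all 20297 tested genes, by 0.99 on the log2 scale. This library was not high in the other members, with 8 counts of H19, 15 of Gpc3 and 58 of Igf2bp3, and its muscle marker sum was the lowest of all, at -1.19 log2 CPM. Library 7, with the most H19, had 138 counts of Afp, at 2.26 log2 CPM the lowest level of the 19 HNKO libraries and below the 4 WT libraries of its day (lowest 2.42). Libraries 11 and 37 had 241 and 259 counts, at 2.89 and 3.10 log2 CPM, within the WT ranges of their days. High Afp and high H19 thus occurred in different mice. Over the 15 HNKO libraries without high H19, r between H19 and Afp was -0.53 and rho -0.41 (permutation p = 0.0822 and 0.160, adjusted 0.257 and 0.348), with r = -0.67 without libraries 22 and 23. In WT the same pair had r = -0.19 and rho = -0.03 (permutation p = 0.476 and 0.911, adjusted 0.982 and 0.974), with r = -0.22 without libraries 21 and 24. Deviations within group and label series gave r of -0.54 in HNKO and -0.39 in WT.

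The genes whose levels ranked most like Afp over 38 libraries were Tmem144 (rho 0.65), Gm15337 (0.62) and 5033421B08Rik (0.62). None of the 3 is a member of the lists of fetal or imprinted genes used here.

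Gpc3, at chrX:52272426-52613950 on the minus strand, overlapped between the genotypes at each day and varied together with mesothelial transcripts in both. At day 6, HNKO libraries 6, 7, 29, 30 and 31 had 33, 53, 84, 12 and 26 counts, against 25, 16, 10 and 8 in WT libraries 8, 10, 27 and 28. Scaled for depth, 3 HNKO libraries lay above all WT libraries and the other 2 among them, and the fitted log2 difference was 0.98 (SE 0.57). At day 21 it was 0.70 (SE 0.62), from 27, 11 and 32 counts in HNKO libraries 37, 38 and 40 and 11, 25, 34, 6 and 6 counts in WT libraries 19, 20, 21, 39 and 41. The differences of days 3 and 12 were -0.06 (SE 0.51) and -0.01 (SE 0.48). Without HNKO library 23 the value of day 3 was -0.71, and without HNKO library 32 that of day 12 was -0.43. The range of counts over these days was 6 to 74 in HNKO and 12 to 52 in WT.

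Mesothelium is the cell sheet that covers the liver capsule, and its markers (Msln, Upk3b, Wt1, Lrrn4, Gpm6a and Krt14, the last of which did not pass the count filter) summed to between 1.42 and 4.16 log2 CPM in HNKO and between 0.98 and 3.95 in WT. Over 19 HNKO libraries, Gpc3 and this sum had r = 0.90 and rho = 0.89 (permutation p = 3e-05 for both, adjusted 0.0015 for both), and r = 0.82 without libraries 23 and 32. Over 19 WT libraries the values were r = 0.88 and rho = 0.91 (permutation p = 1e-05, the smallest they can give, adjusted 0.0005 for both), and r = 0.86 without libraries 39 and 41. Within group and label series, r was 0.92 in HNKO (adjusted permutation p = 0.0145) and 0.86 in WT (adjusted permutation p = 0.062). These were the 1 relation in HNKO and the 1 relation in WT, of 50 each, that passed the adjusted threshold by both r and rho. The next closest list to Gpc3 in HNKO was that of stellate cells and myofibroblasts. It had r = 0.68 and rho = 0.67 (permutation p = 0.00331 and 0.0038, adjusted 0.0552 and 0.0633), and r = 0.64 without libraries 23 and 32. In WT this list had r = 0.46 and rho = 0.37 (permutation p = 0.0738 and 0.147, adjusted 0.714 and 0.922). At day 6 the 5 mesothelial genes that could be tested had a median log2 difference of 1.22 with 0 called, and at day 3 of -0.03 with 0 called. Their part in the Gpc3 values was not tested.

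**Figure D3:**
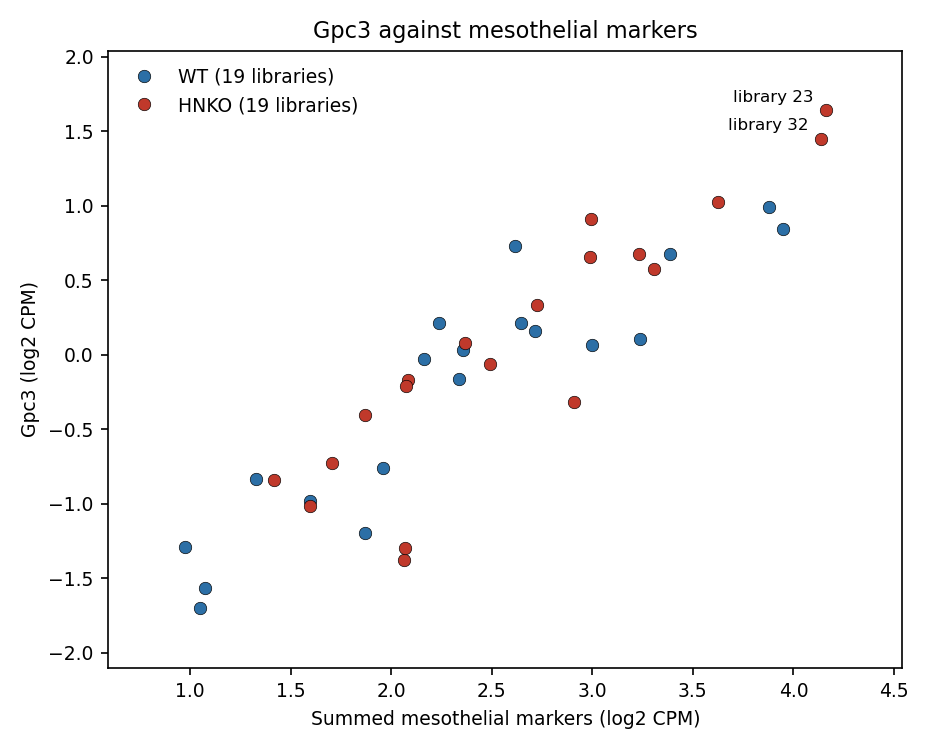
Gpc3 (vertical, log2 CPM) is plotted against the summed level of mesothelial markers (horizontal, log2 CPM), 1 point per library, blue for WT and red for HNKO. Both genotypes rise together along 1 band, and HNKO libraries 23 and 32 form its upper end.

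The genes whose levels ranked most like Gpc3 were Rspo1, a secreted activator of Wnt signaling (rho 0.87), Gpm6a, a membrane glycoprotein that is also in the mesothelial list (0.86), and Sulf1, an enzyme that trims sulfate from the heparan sulfate chains that glypicans carry (0.86). Of the other glypicans, Gpc1, Gpc4 and Gpc6 passed the count filter, and 0 of the 3 were called at any day.

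Igf2bp3, at chr6:49085223-49214957 on the minus strand, was at a similar low count in both genotypes. HNKO libraries had 29 to 114 counts (median 56) and WT libraries 29 to 109 (median 51). The fitted log2 differences were 0.29 (SE 0.26), 0.29 (SE 0.29), 0.22 (SE 0.26) and -0.30 (SE 0.31) at days 3, 6, 12 and 21, and the groups overlapped at each day. HNKO library 7 had the highest value of its day, with 114 counts, and without it the difference of day 6 was -0.01. Igf2bp3 shares 1529 exonic bases with Malsu1 on the opposite strand, which had a median of 318.5 counts, and the use of the strand in counting is not given in the sources used here, so reads of the 2 genes may not be separated.

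The genes most like Igf2bp3 by rank were Iglc2, an immunoglobulin light chain gene (rho 0.57), Smim1 of red blood cells (0.56) and Lpcat4, a phospholipid acyltransferase (0.56). Of the marker lists, erythroid markers were closest to Igf2bp3 within HNKO groups, with r = 0.61 and rho = 0.61 (permutation p = 0.00291 and 0.0156, adjusted 0.0552 and 0.111), and r = 0.62 without libraries 7 and 23. In WT they had r = 0.55 and rho = 0.64 (permutation p = 0.023 and 0.00681, adjusted 0.287 and 0.17), and r = 0.49 without libraries 24 and 39. Neither passed the adjusted threshold. Afp and Igf2bp3 moved in opposite directions within HNKO groups, with r = -0.50 and rho = -0.67 (permutation p = 0.00722 and 0.00162, adjusted 0.0602 and 0.0405), and r = -0.61 without libraries 7 and 36, so the relation passed the threshold by rank only. In WT the pair had r = -0.06 and rho = -0.04 (permutation p = 0.853 and 0.895, adjusted 0.982 and 0.974). The difference between the genotypes was not tested.

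The fitted differences of the 4 tested members are set side by side for each day in the plot of log2 differences. Of the 4, 1 (H19, higher) was called in HNKO at day 6 and 0 were called at days 3, 12 and 21. Over all 20297 genes, 2.95% were called higher and 1.71% lower at day 3, 8.42% and 4.37% at day 6, 4.56% and 3.27% at day 12, and 2.21% and 0.916% at day 21. Since the members were picked by this contrast, nothing is read from their count. The call of H19 at day 6 was lost without HNKO library 7 and also without any 1 of the 4 WT libraries of that day, and it was also lost with label series as a covariate and with the 2 groups of day 6 fitted alone. DESeq2 called 1 member at day 12.

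**Figure D4:**
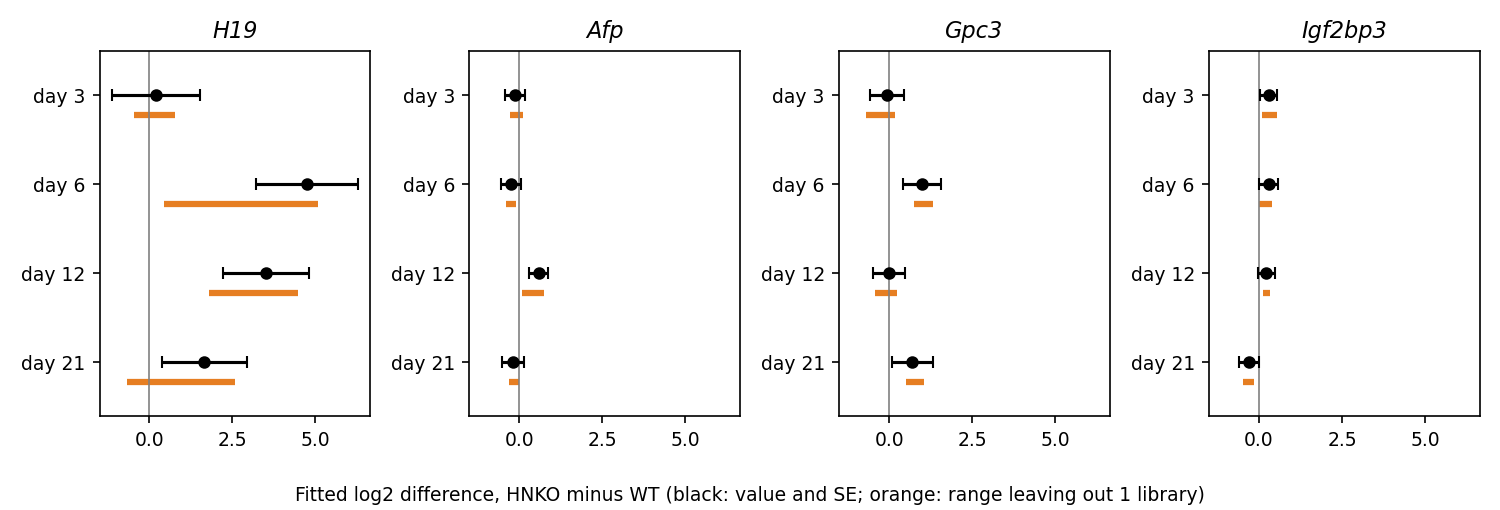
Fitted log2 difference between HNKO and WT (horizontal) for H19, Afp, Gpc3 and Igf2bp3 at each day, with black points and whiskers for the value and SE, and orange lines for the range of the value when each of the 38 libraries was left out in turn. The range for H19 at day 6 runs from 0.43 to 5.07 and at day 21 from -0.68 to 2.58, while the ranges for Afp, Gpc3 and Igf2bp3 stay within 1.5 of 0.

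Library numbers fall into 2 label series, and the differences in mean log2 CPM were computed within each. For H19, HNKO minus WT was 1.07 and -0.82 at day 3, 3.57 and 0.62 at day 6, and 2.99 and 1.27 at day 12 in the series of lower and higher numbers. At day 21 only the series of higher numbers held both genotypes, and the difference was 2.09. The H19 difference thus changed sign between the series at day 3 and was larger in the lower numbers at days 6 and 12, where libraries 7, 11 and 13 belong. For Gpc3 the values were -0.24 and -0.37 at day 3, 0.76 and 1.16 at day 6, and -0.70 and 0.51 at day 12, and at day 21 1.36 in the higher numbers. For Afp they were 0.13 and -0.27 at day 3, -0.00 and -0.46 at day 6, and 0.14 and 0.71 at day 12, and for Igf2bp3 0.68 and 0.02, 0.71 and -0.17, and 0.20 and 0.22. At day 21 they were -0.25 for Afp and -0.48 for Igf2bp3 in the higher numbers.

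In WT livers, which were followed over the same days on PD without the knockout, 0 of the 4 tested members were called. Days on PD and age rise together in these mice and cannot be told apart. Over the 4 days, edgeR's F test called 5.84% of all genes, and the adjusted p was 0.246 for Gpc3, 0.447 for Igf2bp3, 0.729 for H19 and 0.792 for Afp. Against day 3, 0% of all genes (0 genes) were called at day 6, 3.21% at day 12 and 4.95% at day 21 by edgeR. At day 6 the unadjusted p was under 0.05 for 1063 genes and 0 members, and DESeq2 called 5 genes. Of the members, 1 at day 12 and 1 at day 21 had such an unadjusted p, as did 3237 and 4139 of all 20297 genes on these days. The members were Igf2bp3, at a log2 difference of -0.57 (SE 0.27, adjusted p = 0.284 by edgeR), and Gpc3, at -1.37 (SE 0.54, adjusted p = 0.132 by edgeR). The WT livers of day 21 had 6 to 34 counts of Gpc3 (mean -0.99 log2 CPM, SD 0.71, n = 5) and those of day 3 had 16 to 45 (0.37, SD 0.38, n = 5). The groups were separated but for library 20 of day 21, at 0.06 log2 CPM.

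Lists of related genes were then compared between HNKO and WT with the fit over all tested genes. The median log2 difference of all 20297 genes was 0.01, -0.01, 0.00 and -0.01 at days 3, 6, 12 and 21, and the shares of all genes called are those given for the members. Over the 7 lists together, 6, 14, 5 and 4 genes were called higher at days 3, 6, 12 and 21. Without the 6 libraries with high muscle markers, which leaves 2 HNKO and 3 WT libraries at day 21, these counts were 3, 13, 2 and 0, and 2 genes of all tested were called at day 21. Single libraries moved them too. The count of day 3 was 3 without HNKO library 23 and 11 without HNKO library 22. That of day 6 was 9 without HNKO library 7 and 9 without WT library 10. That of day 12 was 3 without any 1 of HNKO library 13 and WT libraries 15 and 33, and 8 without HNKO library 29 of day 6. That of day 21 was 0 without HNKO library 37, 1 without WT library 19 and 2 without WT library 21 or 41.

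Imprinted genes are expressed from 1 parental allele and, like H19, many fall silent after birth. Of 33 imprinted genes listed, 23 could be tested, and 4, 3, 0 and 1 of them rose in HNKO on the 4 days in order, with 0 lower at any day and medians of 0.09, 0.27, 0.07 and 0.19. Peg10, a retrotransposon-derived placental gene, rose by 2.09 (SE 0.43) at day 3 and 2.16 (SE 0.46) at day 6 on the log2 scale. Its neighbor Sgce, encoding a sarcoglycan, rose by 0.86 (SE 0.20), 0.97 (SE 0.21) and 0.93 (SE 0.22) at days 3, 6 and 21. Grb10, an adaptor that restrains insulin receptor signaling, rose by 0.69 (SE 0.20) and 0.93 (SE 0.21) at days 3 and 6, and Kcnq1ot1, a long noncoding RNA that silences its domain, by 0.54 (SE 0.10) at day 3. The maternally expressed Meg3, of the same imprinted domain as Dlk1, had log2 differences of -0.94, 0.38, 0.32 and 0.53 and was called at 0 of 4 days. Igf2r, the receptor that clears Igf2, lay between -0.14 and -0.02 and was called at 0 of 4 days.

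Of the IGF system, 18 of 20 genes could be tested, and the medians were -0.11, -0.12, -0.14 and -0.09. Igfbp2, a circulating binding protein, was lower by -0.99 (SE 0.30) at day 3 and -1.01 (SE 0.28) at day 12. At day 6, Stc2, an inhibitor of the protease that frees IGFs, rose by 1.85 (SE 0.49), and Pappa, that protease, by 1.73 (SE 0.53). The growth factor Igf1 had differences between -0.25 and 0.09 and was called at 0 of 4 days. The receptor Igf1r was likewise called at 0 of 4 days.

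Of 20 transcription factors known to act on Afp, H19 or Gpc3, 1 was called, Cebpa, a factor of mature hepatocytes, which was lower by -0.57 (SE 0.15) at day 3. The medians were -0.05, -0.05, -0.08 and -0.19. Zhx2 and Zbtb20, repressors of Afp in the adult liver, had differences of -0.26 to 0.21 and -0.07 to 0.11 and were called at 0 of 4 days, as were Hnf4a and Ctcf, the latter of which binds the imprinting control region of H19.

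Several other genes of fetal liver and liver tumors rose in HNKO. Of 20 listed, 14 could be tested, and 1, 6, 4 and 3 rose at days 3, 6, 12 and 21, with 0 lower and medians of 0.22, 0.98, 0.71 and 0.30. Spink1, a trypsin inhibitor, rose by 5.04 (SE 1.31), 3.42 (SE 1.05) and 5.76 (SE 1.16) at days 3, 6 and 21, from a median of 1.5 counts. Cd24a, a surface glycoprotein of progenitors and bile duct cells, rose by 2.12 (SE 0.54), 2.59 (SE 0.48) and 2.06 (SE 0.54) at days 6, 12 and 21. Pkm, the pyruvate kinase whose M forms mark fetal liver, rose by 1.09 (SE 0.23), 0.80 (SE 0.21) and 0.84 (SE 0.24) on the same days. Hk2, a hexokinase nearly absent from adult hepatocytes, rose by 1.16 (SE 0.32) and 1.12 (SE 0.29), and Tff3, a trefoil peptide of epithelia, by 3.29 (SE 0.97) and 2.98 (SE 0.88) at days 6 and 12. Cyp3a16, a cytochrome P450 gene of the same list, had log2 differences of -1.34 (SE 0.91), -2.58 (SE 0.98), -2.59 (SE 0.88) and -3.87 (SE 1.25) and was called at 0 of 4 days (adjusted p = 0.42, 0.0771, 0.0619 and 0.0766 by edgeR). The oncofetal RNA-binding genes Lin28a and Lin28b and the hepatoblast factor Sall4 did not pass the count filter.

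Markers of several other cell types were called on the same days. Of 7 markers of cholangiocytes and progenitors, 4, 5, 4 and 3 rose at days 3, 6, 12 and 21, with 0 lower, and their summed level was 6.87 to 9.62 log2 CPM in HNKO and 5.27 to 5.93 in WT. Cd24a stands in both lists. None of the 4 tested members was correlated with this sum within groups by the adjusted threshold. Of 8 markers of stellate cells and myofibroblasts, 3, 4, 3 and 3 rose, and 1 (Reln) was lower at day 12. Their summed level was 8.19 to 10.28 log2 CPM in HNKO and 8.39 to 8.95 in WT, and the collagen gene Col1a1 rose on each day, by 4.02 (SE 0.67) at day 6. Of 6 macrophage markers, 1, 3, 1 and 1 rose, with sums of 7.86 to 9.35 log2 CPM in HNKO and 7.55 to 8.98 in WT, and the chemokine receptor gene Ccr2 rose on each day. Of 6 proliferation genes, 0, 1, 0 and 2 rose, with median log2 differences of 1.26, 1.36, 1.14 and 1.89. Of 3 tested markers of pancreatic acinar cells, which also express Spink1, 1 (Ctrb1, at 8.97) was called, at day 12, and Cpa1 had log2 differences of 3.62 and 3.71 at days 3 and 12, both genes with a median of 0 counts. Cela1, the abundant marker of the 3 (median 351 counts), had differences of -0.67 and -0.88 on these days and was not called. The 6 acinar markers summed to 2.18 to 4.94 log2 CPM in HNKO and 3.23 to 4.84 in WT. The 6 skeletal muscle markers called at day 12 were given with H19, and Pkm and Hk2 are also expressed in muscle. The part of these cells in the values of the oncofetal genes was not tested.

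**Figure D5:**
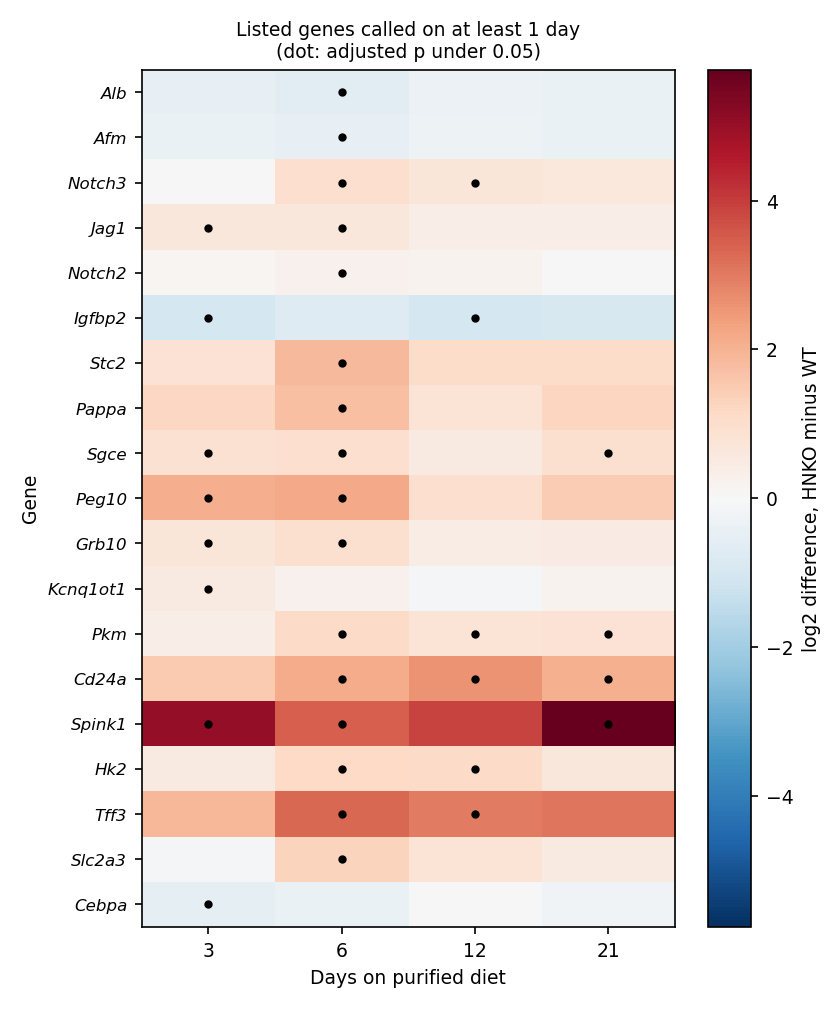
Color gives the fitted log2 difference between HNKO and WT (red higher, blue lower in HNKO) for the 19 listed genes, other than the members, that were called on at least 1 day, with days on purified diet on the horizontal axis and a dot where the adjusted p was under 0.05. Spink1, Tff3, Cd24a and Peg10 are the reddest rows, and Igfbp2, Alb, Afm and Cebpa are the blue ones.

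Of the other 3 genes of the albumin family, Alb and Afm were lower at day 6, by -0.67 (SE 0.18) and -0.48 (SE 0.15), and the vitamin D binding protein gene Gc was called at 0 of 4 days, with differences of -0.11 to -0.02. Of 6 tested genes of the Notch pathway, the receptor Notch3 rose by 0.95 (SE 0.21) at day 6 and 0.68 (SE 0.18) at day 12. The ligand Jag1 rose by 0.65 (SE 0.14) at day 3 and 0.67 (SE 0.15) at day 6, and Notch2 by 0.24 (SE 0.08) at day 6. The target genes Hes1 and Hey1 were called at 0 of 4 days.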

How the data were processed

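After rRNA removal, whole-liver RNA was read as 51-bp paired-end reads from a stranded kit. The authors aligned reads to GRCm38 with STAR 2.7.2b and deposited raw counts per gene made with featureCounts 1.6.4, per the labels and methods, and their own analysis used edgeR 3.26.0. The strand setting of the counting is not given in the sources used here. Libraries 17 and 18, labelled as failed in quality control, were left out of the fits. Genes were filtered with filterByExpr (10 counts minimum), scaled by TMM and fitted over 8 groups with edgeR 4.0.16 quasi-likelihood tests in R 4.3.3, with Benjamini-Hochberg adjustment over all tested genes (called: adjusted p under 0.05). Log2 CPM used a prior count of 2. The code was tested on simulated data. No 2 libraries of a group differed by less than sampling noise (74 pairs, with a chi-square of at least 12.3 per gene). Labels name separate mice only by library, so p-values measure the spread between libraries.

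The members and lists were chosen with earlier results of these data known. Named genes were the members, Nampt, all tested genes of lists of up to 5, otherwise up to 5 genes per list called on the most days (ties by the p of day 6), and the genes ranking most like each member. Further genes of the lists (Meg3, Igf2r, Igf1, Igf1r, Zhx2, Zbtb20, Hnf4a, Ctcf, Hes1 and Hey1 where the rule did not take them), the marker genes Col1a1, Ccr2, Reln, Ttr, Ctrb1, Cpa1 and Cela1, the listed gene Cyp3a16, the neighbors of H19 and the genes standing out in library 7 were named for their role or level after their values were seen. Alternatives were DESeq2 1.42.0, other filters, prior counts and samples, a term for label series, and fits without each library in turn. The omission of libraries with high muscle markers was chosen after seeing the data. Some items of the regulator list are not reported here.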

Additional observations from a re-analysis of the deposited data

Results flagged for a closer look

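Of 42 combinations of a group and a measure, 4 held a library far outside its group by Dixon's criterion. The usual chance rate of about 1 in 20 groups cannot be set against this count. The members were selected after H19 had been seen to be high in some HNKO livers, so these flags are descriptions and not tests. H19 in HNKO library 7 at day 6 was at 6.25 log2 CPM, with the other 4 libraries of its group at 0.19 or below. Afp in HNKO library 36 at day 12 was at 4.56 log2 CPM, with the other 5 between 2.58 and 2.89. Afp in WT library 20 at day 21 was at 2.67 log2 CPM, below the others of its group at 3.10 to 3.23. The summed skeletal muscle markers in HNKO library 23 at day 3 were at 4.03 log2 CPM.

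The 2 HNKO libraries of day 21 left out for failed quality control were placed on a scale of all 40 libraries. Gpc3 had 49 and 63 counts there, at 1.94 and 1.83 log2 CPM in libraries 17 and 18, above the WT range of day 21, -1.69 to 0.07. Igf2bp3 in library 18 was at 1.76 log2 CPM, above the WT range of 0.80 to 1.66, while library 17 had 1 count. H19 had 0 counts in library 17 and 100 in library 18. Afp had 1 and 85 counts.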

How the results depend on the processing

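At days 3, 6, 12 and 21, 945, 2596, 1588 and 634 genes were called between HNKO and WT. DESeq2 called 1428 at day 3 and 994 at day 21. All 40 libraries gave 331, 1321, 624 and 1350, the 2 groups of a day alone 420, 1325 and 867 at days 3, 6 and 12, and the omission of 6 libraries with high muscle markers 229, 547 and 2 at days 3, 12 and 21. Leaving out single libraries gave 322 to 1668, 1126 to 3027, 852 to 1773 and 13 to 915, the 13 without HNKO library 37.

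The count of members called at day 6 went from 1 to 0 with 10 counts required in every library (a filter H19 does not pass), all 40 libraries, label series as a covariate and the 2 groups alone, and was 0 to 1 with single libraries left out. At day 12 it went from 0 to 1 with DESeq2 and was 0 to 1 with single libraries left out (1 without library 7), and at day 21 it went from 0 to 1 with all 40 libraries. The H19 difference of day 21 ranged from -0.68 to 2.58 with single libraries left out. All 40 libraries moved the day 21 differences of Gpc3 to 1.92 and Afp to -0.61.

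Of the 7 lists, 6, 14, 5 and 4 genes were called higher. The count at day 6 was 9 with 10 counts in every library and 9 with the 2 groups alone, that of day 12 was 2 and that of day 21 was 7 with all 40 libraries, and the 2 groups alone gave 2 at day 21. Without high muscle markers the counts were 3, 2 and 0 at days 3, 12 and 21, and with single libraries left out 3 to 11, 9 to 15, 3 to 8 and 0 to 5. Called lower were 2, 2, 1 and 0 genes. DESeq2 gave 4, 4, 2 and 1, no filter 1 and 0 at days 3 and 6, all 40 libraries 0, 1 and 2 at days 3, 6 and 21, label series 2 at day 12, the 2 groups alone 1, 0, 0 and 1, and the omission of high muscle markers 0 and 0 at days 3 and 12. Single libraries left out gave 0 to 6, 0 to 5, 0 to 2 and 0 to 1.

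In WT, 1185 genes changed over the 4 days, and 0, 652 and 1005 at days 6, 12 and 21 against day 3. DESeq2 gave 1886 over the days, 5 at day 6 and 1012 at day 12, no filter 417 and 597 at days 12 and 21, all 40 libraries 581, 340 and 480, label series 2224 over the days and 2002 at day 21, and the omission of high muscle markers 730 and 540. Single libraries left out gave 811 to 1385, 364 to 780 and 546 to 1148. With deviations within group and label series, 3 relations in HNKO and 0 in WT passed the threshold, against 1 each. The cause of these changes was not tested. Of 292 other values, 275 were classed as unchanged, because they kept their direction and their side of the threshold or moved by less than the spread. A change of sign in a value that did not pass the threshold, and a small change in a count, were also classed as unchanged. No paired analysis was possible because each library number occurs once and the groups share none. H19, Gpc3 and Igf2bp3 had few counts in most libraries, Igf2 and Dlk1 were at or under the floor of 3 counts, and day 21 held only 3 HNKO libraries, which limits what could be detected.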
